A study of Mus musculus with 6 samples.

Results

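Promoters of long noncoding RNA (lncRNA) genes that stand apart from protein-coding promoters were examined for H3K27ac, the acetylation of histone H3 at lysine 27, in mouse retina after repeated mild elevation of intraocular pressure (IOP). The promoters were the transcription start sites (TSSs) of genes typed lincRNA or antisense in GENCODE M21 (GRCm38) that lay more than 5 kb from every protein-coding TSS, each with 2.5 kb on either side. There were 7887 such TSSs of 6969 genes among 77221 annotated TSSs, 5936 of lincRNA and 1951 of antisense genes, and their windows merged into 6911 stretches of genome. Another 2212 lncRNA TSSs within 5 kb of a protein-coding TSS were kept for comparison, as were the 41525 protein-coding TSSs of 21938 genes. The type lncRNA had 0 genes in this release.

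H3K27ac ChIP-seq had been done on 6 bulk retinas of wild-type mice aged 3 months, 1 retina per sample. The 3 4xIOP retinas came from eyes raised to 30 mmHg for 1 h, 4 times at intervals of 2 weeks, and were collected 2 days after the last elevation. The 3 control retinas came from untreated contralateral eyes, so both groups shared genotype and age, and which control and 4xIOP retina came from 1 animal is not given in the sources used here. The protocol filed with the samples also describes injection of dasatinib or vehicle, and the samples' own labels give neither to these retinas. In a bulk retina, fewer cells of a type and less of the mark per cell cannot be told apart.

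H3K27ac lies at active promoters and enhancers, where acetyltransferases such as p300 and CBP place it and deacetylases remove it. A lncRNA is transcribed by RNA polymerase II much like an mRNA, but has no long open reading frame, and many lncRNAs are made in few cell types and at low level. Some act in the nucleus as scaffolds or in gene silencing, some are hosts from which microRNAs or small nucleolar RNAs (snoRNAs) are cut, and for most no role is known. In the retina, host transcripts of the neuronal microRNA miR-124 and several transcripts antisense to eye transcription factors are well known.

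The peaks inside 4 of the 6 lists carry the name of the other group: control replicates 1 and 2 hold peaks named for 4xIOP, and 4xIOP replicates 1 and 2 hold peaks named for control. Samples were grouped by their labels, and the shares, the counts of exclusive promoters and the counts of region calls are also given by the carried names, whereas values of single genes are given by label except where stated. Control replicate 3 also stood apart with 36509 peaks against 16195 to 21893 in the other 5 lists. The fragments at each summit, recovered from the deposited fold and p-value, gave list backgrounds of 87.4 to 173 fragments per 10 kb. As a check of tissue, 6 of 12 retina marker genes, among them Nrl, Otx2 and Rcvrn, had a promoter peak in every list, and 3 (Pax6, Arr3 and Rlbp1) had none in any list. None of 4 microglia, 3 endothelium, 3 lens and 2 erythroid markers had a promoter peak. Of 4 pigment epithelium markers 1 had a peak in every list but control replicate 2, and of 2 liver markers 1 had a peak in control replicate 3.

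The sequences of 9 promoters marked in all 6 lists are shown first, because the results return to them: the 3 genes with the highest fold, after these the leading gene with a TATAAA and the leading CpG-poor gene, and 4 known lncRNAs. Each runs 5′ to 3′ along the gene's strand, from 250 bases before the TSS through 50 bases from it on, read from GRCm38. Capitals mark the motifs searched, on either strand and at any position. TATAAA has the letters of the TATA box, wherever it stands, and GGGCGG is the Sp family box. TAATCC is read by photoreceptor homeodomain factors such as Crx, TGAGTCA is read by AP-1, and CACGTG is an E-box.
Gm33838, chr9:35307550-35307849, minus strand: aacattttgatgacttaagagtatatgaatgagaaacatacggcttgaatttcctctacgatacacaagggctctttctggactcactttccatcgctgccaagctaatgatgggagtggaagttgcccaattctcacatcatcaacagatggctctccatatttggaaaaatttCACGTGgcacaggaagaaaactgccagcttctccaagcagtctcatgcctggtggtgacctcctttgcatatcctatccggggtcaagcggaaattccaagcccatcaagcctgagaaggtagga
Gm7292, chr6:117716092-117716391, plus strand: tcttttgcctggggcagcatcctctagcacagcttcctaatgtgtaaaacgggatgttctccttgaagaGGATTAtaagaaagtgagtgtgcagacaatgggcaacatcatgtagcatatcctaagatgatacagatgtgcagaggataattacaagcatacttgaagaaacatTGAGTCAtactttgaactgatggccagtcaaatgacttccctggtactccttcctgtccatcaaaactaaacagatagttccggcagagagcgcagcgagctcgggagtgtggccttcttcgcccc
D230017M19Rik, chr1:72236215-72236514, plus strand: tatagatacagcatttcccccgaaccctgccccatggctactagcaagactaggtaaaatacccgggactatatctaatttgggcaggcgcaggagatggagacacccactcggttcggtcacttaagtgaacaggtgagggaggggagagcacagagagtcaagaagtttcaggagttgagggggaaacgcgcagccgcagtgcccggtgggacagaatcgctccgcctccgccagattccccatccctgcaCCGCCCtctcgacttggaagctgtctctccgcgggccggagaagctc
Gm42555, chr5:43808694-43808993, minus strand: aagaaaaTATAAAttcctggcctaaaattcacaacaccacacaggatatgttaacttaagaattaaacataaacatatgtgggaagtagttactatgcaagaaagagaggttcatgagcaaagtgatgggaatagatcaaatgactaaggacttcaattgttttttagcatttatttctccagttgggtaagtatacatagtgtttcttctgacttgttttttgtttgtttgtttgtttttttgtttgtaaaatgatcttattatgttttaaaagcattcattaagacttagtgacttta
AC158605.1, chr10:82177985-82178284, plus strand: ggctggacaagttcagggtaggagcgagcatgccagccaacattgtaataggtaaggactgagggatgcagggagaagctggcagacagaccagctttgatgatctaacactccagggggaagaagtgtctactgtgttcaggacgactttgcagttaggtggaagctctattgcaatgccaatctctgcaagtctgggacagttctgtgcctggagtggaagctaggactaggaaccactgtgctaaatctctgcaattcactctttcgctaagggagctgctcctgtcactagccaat
Mir124a-1hg, chr14:64587801-64588100, plus strand: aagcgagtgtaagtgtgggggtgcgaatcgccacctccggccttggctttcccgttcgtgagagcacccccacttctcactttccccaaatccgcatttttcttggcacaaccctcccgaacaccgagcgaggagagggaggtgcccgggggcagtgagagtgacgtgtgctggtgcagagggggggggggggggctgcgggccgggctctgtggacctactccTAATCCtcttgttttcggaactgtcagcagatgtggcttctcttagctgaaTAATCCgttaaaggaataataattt
Vax2os, chr6:83703494-83703793, minus strand: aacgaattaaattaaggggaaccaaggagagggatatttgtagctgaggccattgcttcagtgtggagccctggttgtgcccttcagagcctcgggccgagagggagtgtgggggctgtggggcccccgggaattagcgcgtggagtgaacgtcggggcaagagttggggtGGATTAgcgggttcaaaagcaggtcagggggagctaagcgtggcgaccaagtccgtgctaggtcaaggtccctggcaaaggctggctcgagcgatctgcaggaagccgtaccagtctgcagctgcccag
Neat1, chr19:5845210-5845509, minus strand: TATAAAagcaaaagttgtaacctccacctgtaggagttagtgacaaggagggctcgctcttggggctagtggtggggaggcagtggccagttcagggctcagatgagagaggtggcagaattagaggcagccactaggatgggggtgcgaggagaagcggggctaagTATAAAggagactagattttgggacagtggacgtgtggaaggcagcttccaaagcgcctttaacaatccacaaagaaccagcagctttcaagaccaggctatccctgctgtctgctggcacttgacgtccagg
Snhg12, chr4:132308427-132308726, plus strand: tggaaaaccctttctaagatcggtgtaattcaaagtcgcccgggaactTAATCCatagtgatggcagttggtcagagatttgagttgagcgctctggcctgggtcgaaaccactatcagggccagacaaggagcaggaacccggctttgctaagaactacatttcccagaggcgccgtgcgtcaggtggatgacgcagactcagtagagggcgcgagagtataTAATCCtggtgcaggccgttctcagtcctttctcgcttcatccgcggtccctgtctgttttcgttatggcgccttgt
Mir124a-1hg holds TAATCC at base -26 and at base 25 from its TSS, and Snhg12 holds it at bases -202 and -27. Neat1 holds TATAAA at bases -250 and -83, and Gm42555 at base -243. The AC158605.1 promoter has 3 CpG dinucleotides and none of the motifs, whereas Snhg12 has 18 CpG.

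Few of these promoters carried the mark. A promoter counted as marked in a list when at least 1 bp of a peak fell in its window. The share marked was 6.43, 5.98 and 11.2% in the control lists and 6.50, 6.23 and 4.77% in the 4xIOP lists. The mean was 7.86% ± 2.87 (SD, n = 3) in control and 5.83% ± 0.933 (SD, n = 3) in 4xIOP. Control replicate 3 was the highest, 4xIOP replicate 3 the lowest, and the other 4 lists lay between 5.98 and 6.50% with the groups overlapping. In counts, 376 to 880 TSSs of 298 to 733 genes were marked per list.

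Protein-coding promoters were marked far more often, at 48.1% ± 4.69 (SD, 6 lists) against 6.84% ± 2.21 (SD, 6 lists) for lncRNA promoters. The difference was -41.3 percentage points ± 2.55 (SD over 6 lists), the same way in 6 of 6 lists, by an exact sign-flip test over lists, two-sided (p = 0.031, adjusted p = 0.034), which is the smallest p that 6 lists allow. The adjusted value covers 22 within-list comparisons, and this test asks whether a difference holds from list to list, not whether promoters were sampled at random. It also treats the 6 lists as independent, although control and 4xIOP retinas may come from the same animals. An exact sign-flip test over 3 pairs would allow no p under 0.25. lncRNA promoters still exceeded the genome at large: of all positions more than 5 kb from a protein-coding TSS, 1.53% ± 0.786 (SD, 6 lists) lay within 2.5 kb of a peak, and lncRNA promoters were marked 5.31 points more often in 6 of 6 lists (p = 0.031, adjusted p = 0.034, exact sign-flip test). Per list, the lncRNA share was 3.65 to 6.11 times the positional share and 0.107 to 0.195 times the protein-coding share. lncRNA promoters within 5 kb of a protein-coding TSS were marked at 49.4% ± 5.66 (SD, 6 lists). Where that distance is under 2.5 kb the window holds the protein-coding TSS itself, so a peak there counts for both. At the edge of the definition, TSSs 2.5 to 5 kb from a protein-coding TSS were marked at a mean of 15.7% (406 TSSs) and those at 5 to 7.5 kb at 14.0% (311 TSSs).

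**Figure D1:**
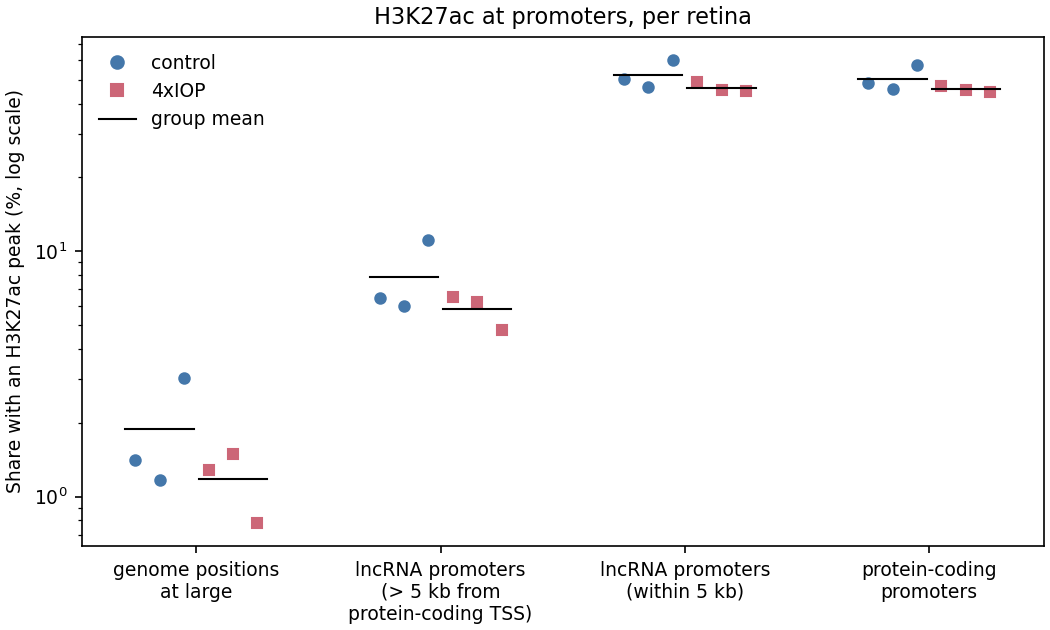
Share of genome positions and promoters with an H3K27ac peak (%, log scale) in each of the 6 retinas. Circles are control lists, squares 4xIOP lists and bars group means; the lncRNA promoters more than 5 kb from a protein-coding TSS sit between 4.77 and 11.2%, above genome positions and below both other promoter classes.

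Few lncRNA promoters were marked in every retina. Of the 7887 TSSs, 6955 (88.2%) were marked in no list, 278 (3.52%) in 1 list and 292 (3.70%) in all 6, while 16250 (39.1%) protein-coding TSSs were marked in all 6. Among TSSs marked at least once, 31.3% of lncRNA and 67.6% of protein-coding TSSs were marked in every list. Of the 278 TSSs marked in a single list, 236 were marked in control replicate 3, the list with the most peaks. The 292 TSSs marked in all 6 lists belong to 230 genes and lie in 219 separate stretches; alternative TSSs of a gene can share a peak. The 567 lncRNA TSSs on the Y chromosome had 0 marked in any list. On the X chromosome 13 of 149 TSSs were marked in all 6 lists, and 10 of the 13 belong to Jpx and Ftx, genes of the X-inactivation centre.

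CpG-rich lncRNA promoters were marked more often than CpG-poor ones. A promoter was called CpG-rich when the ratio of observed to expected CpG over its 300 bases was at least 0.6. The 484 CpG-rich promoters were marked at 33.8% ± 4.80 (SD, 6 lists) and the 7403 CpG-poor promoters at 5.08% ± 2.06 (SD, 6 lists), a difference of 28.7 points ± 3.06 in 6 of 6 lists (p = 0.031, adjusted p = 0.034, exact sign-flip test). Even so, CpG-rich lncRNA promoters were marked 45.0 points less often than CpG-rich protein-coding promoters, which were marked at 78.8%. CpG-poor lncRNA promoters were marked less often than CpG-poor protein-coding promoters (20.4%) and more often than genome positions at large, each in 6 of 6 lists with the same p.

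Marking also varied with distance and type. TSSs 5 to 10 kb from the nearest protein-coding TSS were marked at 12.6%, those at 10 to 50 kb at 9.95%, at 50 to 100 kb 6.50% and beyond 100 kb 3.06%, as means of 6 lists. TSSs up to 50 kb away exceeded those farther off by 6.23 points ± 1.39 (p = 0.031, adjusted p = 0.034, exact sign-flip test). Antisense TSSs were marked at 8.86% and lincRNA TSSs at 6.18%, and TSSs inside a protein-coding gene at 8.40% against 6.42% outside, each difference positive in 6 of 6 lists with the same p. A marked lncRNA promoter also lay nearest to a marked protein-coding promoter more often. The nearest protein-coding TSS was marked for 61.0% ± 6.44 of marked and 42.0% ± 5.11 of unmarked lncRNA TSSs (SD, 6 lists), in 6 of 6 lists (p = 0.031, adjusted p = 0.034, exact sign-flip test). Beyond 50 kb the shares were 58.3% and 39.7%.

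Host transcripts of small RNAs were marked more often than the rest. The 130 TSSs of 72 genes that hold an annotated microRNA on their strand were marked at 22.4% ± 4.34 (SD, 6 lists), the 46 TSSs of 37 snoRNA host genes at 15.9% ± 1.77 (SD, 6 lists), and the 7713 TSSs with neither at 6.53% ± 2.19 (SD, 6 lists). Both differences held in 6 of 6 lists (p = 0.031, adjusted p = 0.034, exact sign-flip test). Of the microRNA hosts, 12 genes were marked in all 6 lists. Among them, 6720427I07Rik holds let-7d, let-7f-1 and let-7a-1, E130102H24Rik holds miR-101a, Gm20732 holds miR-30d, Mir17hg the growth-linked miR-17 cluster, and Mir124a-1hg and Mir124-2hg each a copy of miR-124. The 5 snoRNA hosts marked in all 6 lists were Snhg6, Snhg12, Epb41l4aos, 2700038G22Rik and 9430037G07Rik.

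**Figure D2:**
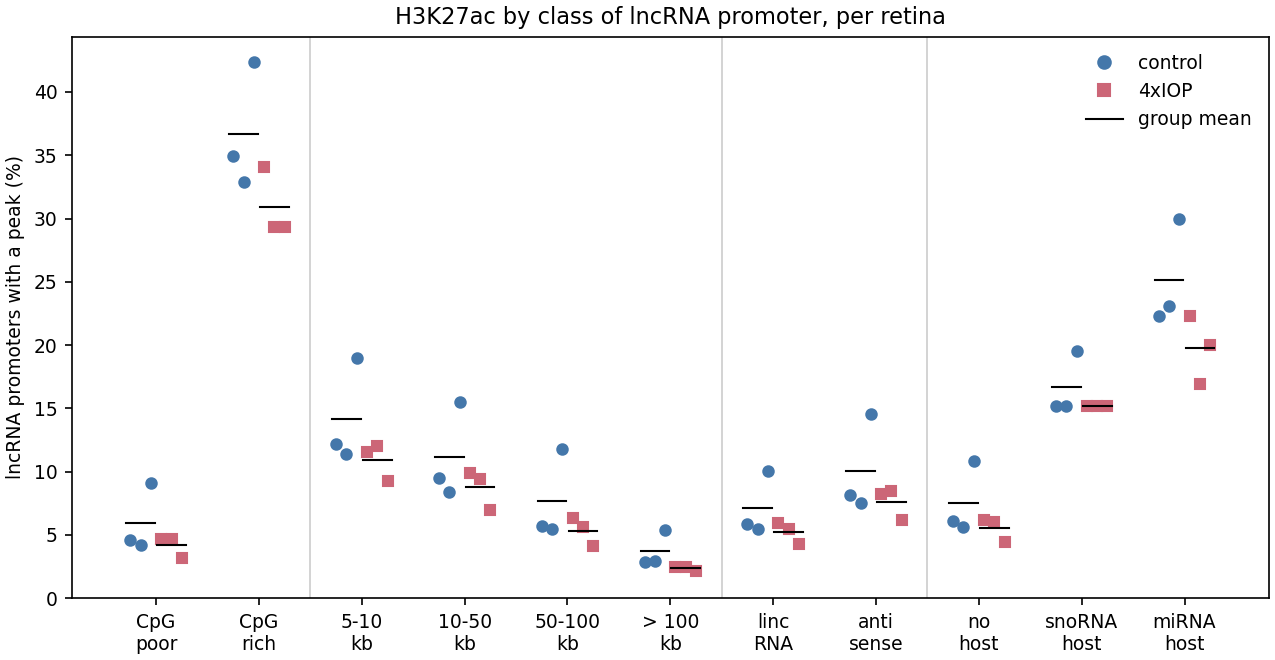
Share of lncRNA promoters with an H3K27ac peak (%) by CpG content, distance to the nearest protein-coding TSS, gene type and small RNA hosted. Circles are the 3 control lists, squares the 3 4xIOP lists, and bars group means; CpG-rich promoters reach 29.3 to 42.4% and promoters beyond 100 kb 2.17 to 5.37%.

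Of the motifs, GGGCGG, which itself holds a CpG, stood in 34.2% of the promoters marked in every list, 6.99% of those marked in none, 9.03% of all lncRNA promoters and 29.0% of all annotated promoters. TAATCC stood in 18.8% of the promoters marked in every list, 8.94% of those marked in none, 9.57% of all lncRNA promoters and 8.52% of all annotated promoters. CACGTG, which also holds a CpG, stood in 9.93% of the promoters marked in every list, 4.74% of those marked in none, 5.11% of all lncRNA promoters and 5.84% of all annotated promoters. TATAAA stood in 12.7% of the promoters marked in every list, 16.0% of those marked in none, 15.7% of all lncRNA promoters and 15.4% of all annotated promoters, and TGAGTCA stood in 6.16% of the promoters marked in every list, 6.60% of those marked in none, 6.54% of all lncRNA promoters and 4.56% of all annotated promoters. These shares describe letters in a 300-base window, searched on both strands, with none of the 5 motifs contained in another, and no test was made. Bases soft-masked as repeats made up a mean of 12.7% of the promoters marked in every list and 28.8% of those marked in none.

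Summits at lncRNA promoters lay farther from the TSS. Of marked lncRNA promoters, 59.6, 60.0, 58.2, 58.9, 57.0 and 60.4% in the 6 lists (control first) had the nearest summit within 500 bp of the TSS. The values for protein-coding promoters were 85.1, 85.5, 86.8, 84.5, 82.6 and 85.9%. The groups of values did not overlap, and the difference was -26.1 points ± 1.26 in 6 of 6 lists (p = 0.031, adjusted p = 0.034, exact sign-flip test). CpG-rich lncRNA promoters reached a mean of 79.2%, CpG-poor ones 49.7%. At both kinds of promoter most summits lay downstream of the TSS, 62.2% for lncRNA and 71.7% for protein-coding promoters.

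**Figure D3:**
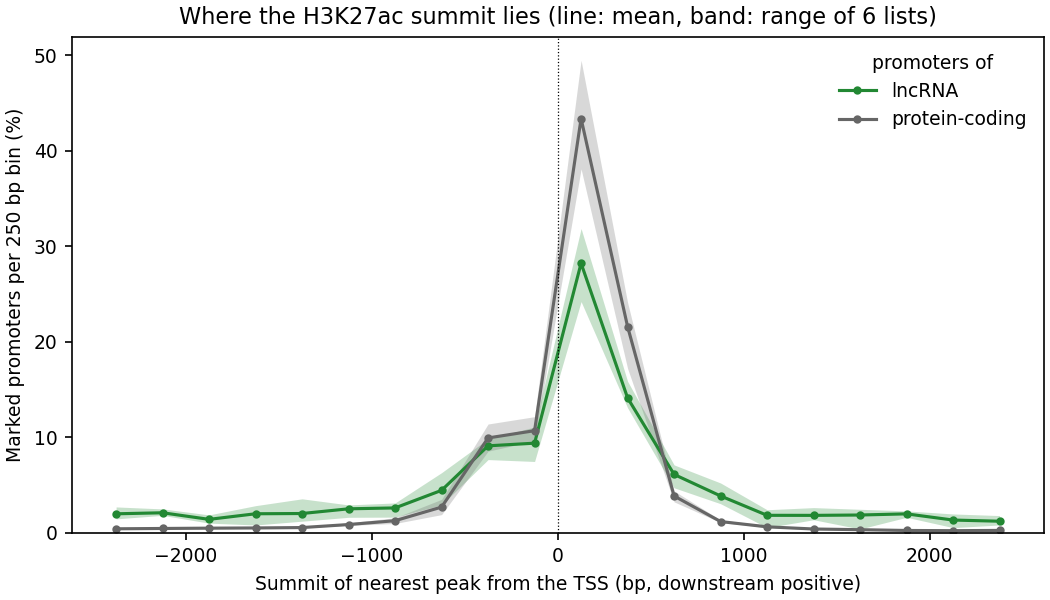
Position of the nearest H3K27ac summit from the TSS (bp, downstream positive) as a percentage of marked promoters per 250 bp bin. Lines are means and bands the range of the 6 lists; the bin just downstream of the TSS is the fullest for both lncRNA and protein-coding promoters, and lncRNA promoters have more summits beyond 500 bp.

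Peaks at lncRNA promoters covered less sequence, and how they compared in strength depended on the measure. The median length covered in the window was 589, 484, 644, 538, 590 and 442 bp at marked lncRNA promoters and 741, 639, 1042, 733, 683 and 549 bp at protein-coding promoters, a mean difference of -183 bp ± 111 (p = 0.031, adjusted p = 0.034, exact sign-flip test). It was -103.6 bp with peaks at a -log10 q of at least 5, and -97.9 bp between CpG-rich promoters. Fold, the deposited ratio of fragments at the summit to a local background, was expressed as a percentile among all peaks of its list. Its median was 48.6, 45.1, 51.6, 43.1, 45.3 and 38.4 at lncRNA and 74.1, 72.7, 81.9, 72.8, 73.7 and 68.9 at protein-coding promoters, a difference of -28.7 points ± 1.94 in 6 of 6 lists (p = 0.031, adjusted p = 0.034, exact sign-flip test). Both rankings used the peak with the highest fold in each window. Ranked by fragments at its summit instead, the medians were 54.8, 56.5, 42.8, 50.1, 57.5 and 59.1 at lncRNA and 57.3, 56.5, 73.5, 58.9, 54.8 and 55.6 at protein-coding promoters. That difference was -5.97 points ± 12.9 with lncRNA higher in 2 of 6 lists, and it did not pass the test (p = 0.438, adjusted p = 0.438, exact sign-flip test). Without control replicate 3 it was -1.04 points (p = 0.875, exact sign-flip test). Within CpG-rich promoters the fold percentile of lncRNA peaks was 10.8 points lower, in 6 of 6 lists.

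Single genes were therefore read by fold and by the fragments at the summit divided by the list's background, the lowest local background in that list. The summit was that of the peak with the highest fold in the window, so another peak there may hold more fragments. By fold the leading gene was Gm33838 (chr9:35301722-35307599), with 25.5, 25.1 and 27.7 in the control retinas and 23.5, 24.1 and 26.5 in the 4xIOP retinas. Its summit lay 2.19 kb downstream of the TSS, where 99.8% of the bases around the summit are soft-masked repeat, and the groups overlapped. The next were Gm7292 (chr6:117716342-117718868), with 12.7, 8.93 and 15.1 in the control retinas and 9.63, 11.9 and 8.07 in the 4xIOP retinas, and D230017M19Rik (chr1:72236465-72274869), with 9.58, 10.2 and 11.1 in the control retinas and 7.15, 8.95 and 10.1 in the 4xIOP retinas. In both genes control replicate 3 was highest and the groups overlapped. Over the 6 lists, the summits stood 89.3 to 155 times list background at Gm33838, 11.3 to 27.5 times at Gm7292 and 28.1 to 58.7 times at D230017M19Rik. The remaining leaders were Gm26901, Epb41l4aos, 6720427I07Rik, Fbxl12os, AC158605.1, 2900076A07Rik and Gm11205, with mean folds of 7.80 to 8.88. Gm26901 stands 309 kb and Epb41l4aos 212 kb from the nearest protein-coding TSS.

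By fragments at the summit the order was different. After Gm33838, Malat1 (chr19:5795690-5802672), an abundant nuclear RNA, had the highest mean, with 58.8, 39.0 and 70.5 in the control retinas and 51.2, 60.8 and 28.8 in the 4xIOP retinas times list background. 4xIOP replicate 3 was lowest, control replicate 3 highest, and the groups overlapped. The fold percentile of Malat1 was 61.7 to 80.8. Mir124-2hg (chr3:17789921-17808970) followed with 55.7, 30.8 and 66.0 in the control retinas and 43.8, 52.8 and 35.1 in the 4xIOP retinas. Gm16262 came next with a mean of 41.1 and a mean fold percentile of 36.8. Rncr4 (chr6:30172893-30175126), a retinal noncoding RNA that was named after its values were seen, had 35.1, 26.6 and 69.7 in the control retinas and 39.3, 51.4 and 20.3 in the 4xIOP retinas. Its fold percentile was only 0.467 to 3.22, since its local background held 21.8 to 77.6 fragments against 2.01 to 3.38 for the list background. Gm26917, Gm42418 and AY036118, at 1 shared locus, averaged 39.2, A930006L05Rik 39.2 and AC132455.2 38.5. Mir124a-1hg (chr14:64587331-64593961) had 42.4, 27.8 and 58.7 in the control retinas and 33.3, 38.6 and 26.5 in the 4xIOP retinas, with fold percentiles of 1.16 to 4.78 and a local background of 26.1 to 64.1 fragments. Over the 231 genes marked in every list, the median was 18.7 times list background, with a range of 7.07 to 126, and 5 genes had a summit mostly in soft-masked repeat.

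**Figure D4:**
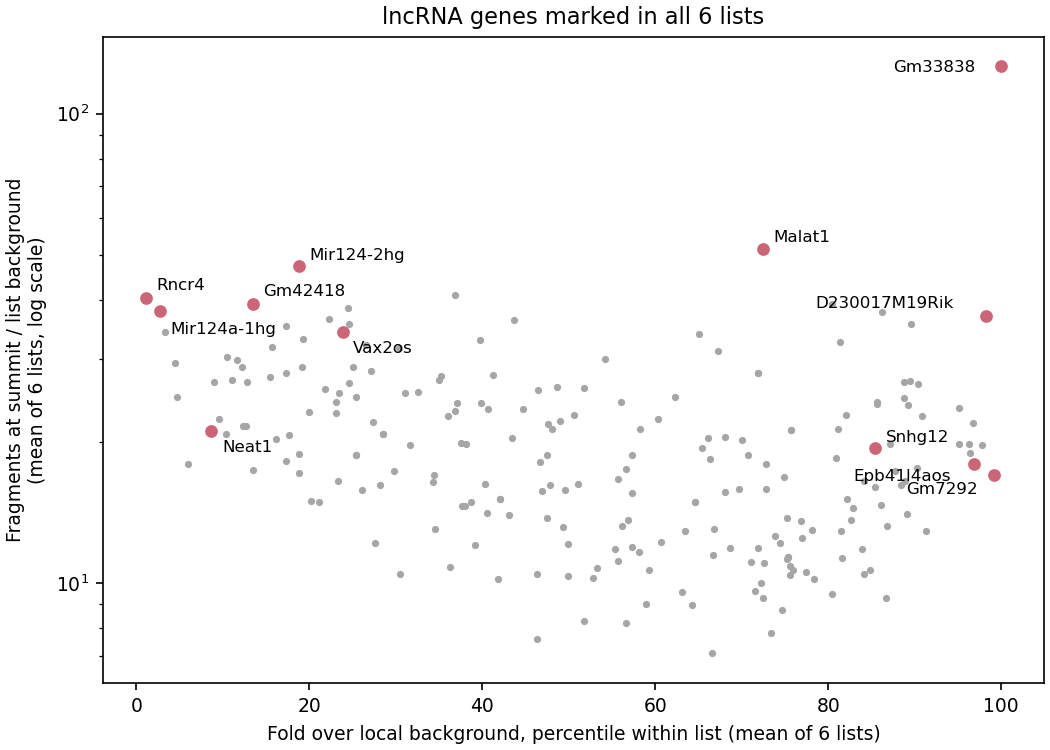
The 231 lncRNA genes marked in all 6 lists, by fold over local background (percentile within the list, x axis) and by fragments at the summit over list background (y axis, log scale), each the mean of 6 lists. Red points are the labelled genes; Rncr4, Mir124a-1hg and Mir124-2hg lie at the upper left, with fold percentiles of 1.13, 2.77 and 18.8 and summits 40.4, 37.9 and 47.3 times list background.

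The longest covered stretches were at Gm42418, AY036118 and Gm26917, which share a locus on chr17 known to hold ribosomal RNA sequence. Reads from near-identical rRNA copies can collect there, so these values are uncertain. Gm42418 was covered over 2257, 4097 and 3293 in the control retinas and 1748, 1784 and 3831 in the 4xIOP retinas, in bp. 2410080I02Rik (chr19:23134900-23135717), with 2030, 1876 and 2622 in the control retinas and 1702, 1547 and 1708 in the 4xIOP retinas bp, and Gm16262 (chr9:94695704-94702319), with 1906, 1820 and 2067 in the control retinas and 1928, 1331 and 1255 in the 4xIOP retinas bp, came next. At 2410080I02Rik every control retina had more bp covered than any 4xIOP retina, the smallest gap being that between control replicate 2 and 4xIOP replicate 3. By the names the lists carry, the groups were 2622, 1702 and 1547 bp for control and 2030, 1876 and 1708 bp for 4xIOP, and overlapped. No test was made on the length of single genes.

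Lists of known lncRNAs were then read against all 6969 genes, of which 231 (3.31%) were marked in all 6 lists at 1 TSS or another, 6187 (88.8%) in none, and the median gene in 0 lists. Listed genes with no TSS among the 7887 were left out: 4 of 11 annotated nuclear genes, 13 of 17 snoRNA hosts, 11 of 23 neural, 5 of 14 microRNA hosts, 4 of 13 imprinting and 4 of 15 stress genes. The others were scored only at their TSSs among the 7887. A gene said to have no peak had none there, and any TSS of it nearer to a protein-coding TSS was not scored. Among 7 nuclear and widely expressed lncRNAs, 2 were marked in all 6 lists, 3 in some and 2 in none, with a median of 5 lists. Malat1 is given above. Neat1 (chr19:5824708-5845478), the scaffold of paraspeckles, had 25.1, 20.1 and 25.5 in the control retinas and 20.4, 16.96 and 18.3 in the 4xIOP retinas times list background. Control replicates 1 and 3 lay above every 4xIOP retina, and control replicate 2 just below 4xIOP replicate 1. Its fold percentile was 5.18, 16.1 and 9.31 in the control retinas and 7.63, 6.71 and 7.23 in the 4xIOP retinas, with overlap. The Neat1 peak also lies in the promoter window of Frmd8os, which has the same values. Ranked among the shared regions alone, the region of both genes had a mean score of -2.61 in control and -2.25 in 4xIOP (unadjusted p = 0.336 by limma). Lncpint, a transcript induced by p53, and 2900097C17Rik were marked in 5 lists each. Pvt1, neighbour of Myc, and Nron had no peak. Among 4 snoRNA hosts, Snhg6, Snhg12 and Epb41l4aos were marked in all 6 lists and Snhg20 in 5, a median of 6. Snhg12 (chr4:132308623-132311024) had 18.2, 14.5 and 35.6 in the control retinas and 18.4, 16.96 and 12.5 in the 4xIOP retinas times list background and Epb41l4aos 16.4, 13.02 and 30.4 in the control retinas and 17.4, 20.7 and 9.35 in the 4xIOP retinas. Control replicate 3 was highest and 4xIOP replicate 3 lowest at both, and the groups overlapped. Their mean fold percentiles were 85.5 and 96.9.

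Among 12 neural and retinal lncRNAs, 3 were marked in all 6 lists, 3 in some and 6 in none, with a median of 0.5 lists. The 3 were Mir124a-1hg, Mir124-2hg and Vax2os, the last transcribed opposite the ventral eye gene Vax2. Vax2os (chr6:83692806-83712201) had 37.9, 32.5 and 40.1 in the control retinas and 33.8, 41.9 and 19.1 in the 4xIOP retinas times list background, with 4xIOP replicate 3 lowest, 4xIOP replicate 2 highest and a mean fold percentile of 23.9. C130071C03Rik was marked in 4 lists, and Meg3 and Mir9-3hg in control replicate 3 alone. Rmst, with 11 TSSs scored, Miat, Dlx6os1, Dlx1as and Pantr1, with 1 each, and Mirg had no peak in any list. These lncRNAs are known from developing or adult neurons.

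Among 9 microRNA hosts fixed by name, 3 were marked in all 6 lists, 2 in some and 4 in none, with a median of 1. Mir17hg (chr14:115042879-115046727) had 16.0, 12.4 and 31.6 in the control retinas and 13.4, 11.8 and 10.1 in the 4xIOP retinas times list background, and its highest 4xIOP value was above its lowest control value. Its fold percentile was 78.1, 90.9 and 84.9 in the control retinas and 59.6, 53.7 and 70.0 in the 4xIOP retinas, without overlap, and its region did not pass the test (unadjusted p = 0.0850, adjusted p = 1.00 by limma). Mir670hg was marked in control replicate 3 alone. Mir155hg, host of the inflammatory miR-155, Mirt1, Mirg and H19 had no peak. Among 9 lncRNAs of imprinting and X inactivation, Jpx and Ftx were marked in all 6, 3 in some and 4 in none. Ftx (chrX:103560907-103623790) had 14.6, 10.6 and 16.2 in the control retinas and 10.9, 8.01 and 7.01 in the 4xIOP retinas times list background, overlapping between groups, and Jpx (chrX:103493556-103565696) 12.3, 7.99 and 19.4 in the control retinas and 9.45, 15.6 and 6.24 in the 4xIOP retinas. The fold percentile of Ftx was 86.4, 91.3 and 78.9 in the control retinas and 67.5, 55.9 and 71.6 in the 4xIOP retinas, without overlap. By the names the lists carry, the fold percentiles of both Mir17hg and Ftx overlapped between groups. Of the 231 genes marked in every list, 28 (12.1%) had a lower fold percentile in every 4xIOP than in every control retina and 2 (0.866%) a higher one, beside 11.6% and 0.522% of the 10529 regions with a peak in all 6 lists. By the carried names it was 28 (12.1%) lower and 6 (2.60%) higher, beside 11.1% and 2.04%. No test was made on the fold percentile of single genes. Jpx had 53.2, 67.1 and 70.2 in the control retinas and 35.6, 75.9 and 30.4 in the 4xIOP retinas, with overlap. Kcnq1ot1 was marked in 4 lists and Airn in 2. Xist, Tsix, H19 and Mirg had no peak. Among 11 lncRNAs of stress and inflammation, Neat1 and Lockd were marked in all 6, Lncpint, Meg3 and Trp53cor1 in some and 6 (Ptgs2os2, Mir155hg, Pvt1, Dnm3os, Carmn and Mirt1) in none, with a median of 0. Trp53cor1, the p53 target also called lincRNA-p21, was marked in control replicate 3 alone, by 40 bp of a peak.

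**Figure D5:**
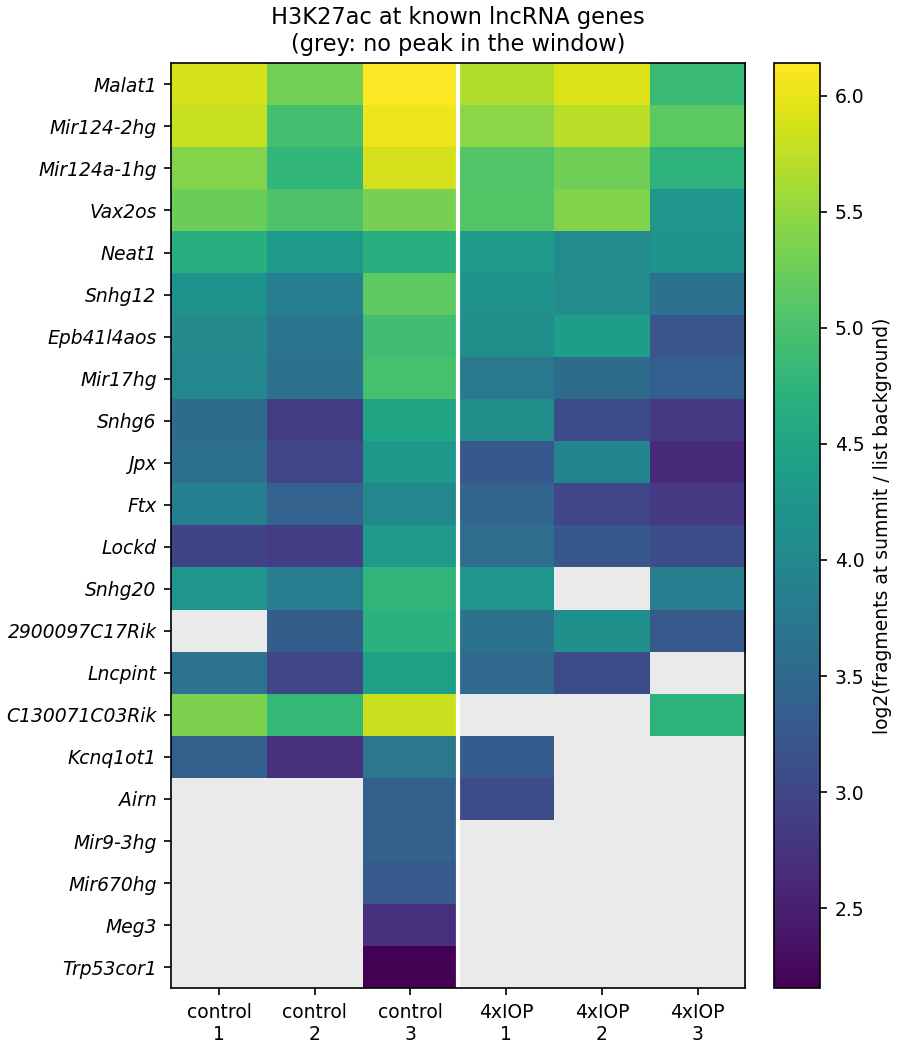
Fragments at the summit over list background (log2) for the 22 listed lncRNA genes with a peak, in each of the 6 retinas; grey means no peak in the window. The 12 top genes are marked in every retina, and control replicate 3 alone marks the 4 at the bottom.

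The share of marked lncRNA promoters did not pass the test between 4xIOP and control. The difference, 4xIOP minus control, was -2.02 percentage points (p = 0.5, exact permutation test, two-sided, n = 3 and 3, where 0.1 is the smallest p possible). It was -0.37 without control replicate 3 (p = 0.9, exact permutation test) and -0.03 when every list was reduced to its 16195 top peaks (p = 0.9, exact permutation test). With lists grouped by the names they carry it was -2.24 (p = 0.2, exact permutation test). Relative to protein-coding promoters, whose own difference was -4.85 points, the sign turned to 2.83 (p = 0.2, exact permutation test). As a ratio to the protein-coding share it stayed negative, at a mean of 0.153 in control and 0.127 in 4xIOP (p = 0.6, exact permutation test). By distance, shares were lower in 4xIOP without overlap at 5 to 7.5 kb, over 50 kb and over 100 kb (each unadjusted p = 0.1, exact permutation test). The groups overlapped at 5 to 10, 10 to 50 and 50 to 100 kb, and by the carried names in all of these classes.

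Promoters exclusive to a group were few. Marked in all 3 control lists and no 4xIOP list were 12 TSSs of 10 genes, 0.152% of the 7887, beside 0.39% of protein-coding TSSs and 0.259% of all annotated TSSs. Marked in all 4xIOP lists and no control list were 0, beside 0% of protein-coding and 0.00518% of all TSSs. As shares of the TSSs marked in any list, control-only TSSs made up 1.29% for lncRNA and 0.674% for protein-coding genes. The 10 genes were Gm26642, A930031H19Rik, A430073D23Rik, Gm13782, Gm30124, 1700064M15Rik, C230035I16Rik, 4930453C13Rik, C130071C03Rik and AC163629.2. Gm13782, antisense on chr6, had 20, 30 and 24 fragments at the summit in the control lists, 1700064M15Rik on chr12 had 14, 15 and 26, and AC163629.2 on chr17 had 13, 16 and 19. C130071C03Rik counts for 1 of its 2 TSSs, as the other was marked in 4xIOP replicate 3 as well. The count of 12 was 29, 35, 29 and 22 without control replicate 1, control replicate 2, 4xIOP replicate 1 or 4xIOP replicate 2, 4 with equal numbers of peaks and 20 with lists grouped by their carried names. The 4xIOP-only count of 0 was 6 without control replicate 3 and 1 without 4xIOP replicate 3.

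Among regions marked in every retina, none at a lncRNA promoter passed the test of rank between groups. Of 39950 merged regions, 10529 had a peak in all 6 lists, and 239 of these reached a lncRNA promoter window. Regions were ranked by fold within each list, the ranks turned into normal scores, and the groups compared with limma over all 10529 regions. At an adjusted p under 0.05, 0 lncRNA regions were higher and 0 lower in 4xIOP, as were 0% of all regions. At an unadjusted p under 0.05 there were 8 of 239, 4 higher and 4 lower, beside 333 (3.16%) of all regions. With lists grouped by the names they carry, 0 lncRNA regions and 1 region of all passed after adjustment, and at an unadjusted p under 0.05 there were 24 of 239 lncRNA regions, 9 higher and 15 lower, and 1019 of all regions. The lncRNA regions had a median score difference of 0.01, as had all regions. Among those with the smallest p, the region of Gm6712 on chr17 scored 0.45 in control and 1.14 in 4xIOP, a difference of 0.70 ± 0.30 (SE), unadjusted p = 0.0340, with an adjusted p of 1.00 by limma. Rab10os on chr12, antisense to the Rab10 locus by name, scored 0.74 in control and -0.24 in 4xIOP, a difference of -0.98 ± 0.42 (SE), unadjusted p = 0.0327 by limma. Gm48623 and Ube4bos1 leaned higher, and 4930509K18Rik and the antisense gene listed as Trmt61b lower, with unadjusted limma p of 0.029 to 0.037. Apart from these, the listed, leading and broadest genes had 28 such regions, of which 1, the rRNA locus of Gm42418, had an unadjusted p of 0.049 by limma, and none passed after adjustment. Mir124-2hg differed by 0.57 ± 0.34 (SE), Vax2os by 0.61 ± 0.32, Mir17hg by -0.61 ± 0.33 and Snhg12 by -0.47 ± 0.32 on the score scale, each with an adjusted p of 1.00 by limma.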

How the data were processed

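H3K27ac ChIP-seq peak lists of 6 mouse retinas, 3 control and 3 4xIOP, were used as deposited, 1 list per retina. The submitters' processing notes name mm10, STAR 2.7.8a, MACS2, HOMER, edgeR and bedtools 2.29.2, without roles. The deposited lists give fold (a ratio to local background), -log10 p-value and -log10 q-value, with a lowest -log10 q of 1.31 to 1.40; the deposited score column was not used. An input or read counts were not analysed here. Whole fragments at the summit were recovered as the number n for which (n + 1) over (background + 1) gives the fold and a Poisson model the p-value, which matched within 0.001 for 99.99% or more of peaks per list.

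Promoters came from GENCODE M21 basic on GRCm38, and sequences from the GRCm38.p6 genome. 0 peaks ran past a chromosome end. Shares were compared between groups by exact permutation, within lists by exact sign flips with Benjamini-Hochberg adjustment, and ranks with limma 3.58.1 in R 4.3.3, with Python 3.11.15 and scipy 1.17.1. The permutation and limma p-values set group differences against the spread between single retinas. The sign-flip p-values ask whether a difference holds from list to list. Scripts were tested on simulated data. The named genes were those of the listed lncRNA genes that had a TSS among the members, the 10 with highest fold percentile, the 5 with longest cover, group-exclusive genes and the 3 regions per direction with smallest limma p. The members and lists were chosen with earlier results of these data known. The small RNA host, nearest-promoter and fragment comparisons, the genes ranked by fragments, and the alternatives of comprehensive annotation, no Y chromosome and the ratio to the protein-coding share were added after the data were seen. Same-numbered retinas showed no pairing (correlations of deviations -0.021, -0.057 and -0.146), so no block was used. Tested alternatives were a stricter q, equal peak numbers, summits inside windows, 1 kb windows, a 10 kb distance, genes as units, carried names, a CpG limit of 0.75, CpG-rich promoters on both sides, rank by p-value, a replicate block and each list left out.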

Additional observations from a re-analysis of the deposited data

How the results depend on the processing

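The 4xIOP minus control difference in marked lncRNA promoters kept its sign except when the protein-coding share was subtracted (2.83 points), and ranged from -2.96 to -0.37 with each list left out. With the replicate number as a block it was -2.02 (p = 1, exact sign-flip test over 3 pairs, where 0.25 is the smallest p), and the block left the rank calls at 0. The count of control-only promoters was 4 with equal peak numbers, 20 by carried names and 14 to 35 with a list left out. That of 4xIOP-only promoters was 1 with summits required in the window, 1 by carried names and 0 to 6 with a list left out. With a list left out, the smallest p of the sign-flip test is 0.0625, so no within-list comparison could pass; their values ran from -41.66 to -40.28 points against protein-coding promoters, 4.76 to 5.58 against positions at large, -29.3 to -28.3 in fold percentile, -201.5 to -140.6 bp in covered length and 27.8 to 29.6 points for CpG-rich minus CpG-poor. Ranked by fragments in place of fold, the strength difference from protein-coding promoters fell to -5.97 percentile points (p = 0.438, exact sign-flip test), and it ran from -7.86 to -1.04 with each list left out, the last without control replicate 3. The cause of these shifts was not tested. The covered length difference shrank to -103.6 bp at a -log10 q of at least 5 and to -97.9 bp, and the fold percentile difference to -10.8, between CpG-rich promoters. The other alternatives run kept direction and call, and lncRNA rank calls were 0 under each, though by carried names 1 region elsewhere was called. Peak lists hold no regions under the caller's threshold, so a missing peak means only that none was called at that depth.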
